A study of Mus musculus with 5 samples.

Results

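Type B intercalated cells are the bicarbonate-secreting cells of the connecting tubule and collecting duct. Here they were taken from 4 droplet libraries of mouse kidney by a rule on unique molecular identifiers (UMIs, each standing for 1 captured transcript). A cell was kept if it had at least 200 genes and at most 50% of its UMIs from mitochondrial genes. A kept cell was called type B if Atp6v1g3 plus Atp6v0d2 reached at least 3 UMIs, Slc26a4 had at least 1 UMI and more than Slc4a1 plus Aqp6, Ptprc had 0 UMIs, Egfl7 at most 1 and Slc12a1 at most 2. The rule found 157 cells among 13823 kept cells. Of these, 27 were in the sham library, 63 in the library taken 2 days after unilateral ureteric obstruction (UUO), 32 in the library taken 7 days after UUO and 35 in the library of reversed UUO, taken 7 days after the obstruction was reversed, on experimental day 14. All 4 groups were kidneys of 8 week old C57/BL6 mice, with sham surgery serving as the day 0 time point, and no allele or agent beyond the surgery is named in the labels. Each library pooled 3 mice, so there is 1 library a group, differences between groups have no replicate check and no test was made. Kidneys were digested on ice, live cells were sorted by DAPI, and libraries were made by the 10x 3′ V2 workflow, so the cells present are those that survived digestion and the sort.

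Type B cells carry the chloride-bicarbonate exchanger pendrin, encoded by Slc26a4, on the side facing the urine and the proton pump (vacuolar H+-ATPase) on the side facing the blood, the reverse of the acid-secreting type A cells. They take up chloride, secrete bicarbonate in alkalosis and, through pendrin working beside the sodium-driven exchanger encoded by Slc4a8, take part in salt reabsorption. The basolateral anion exchanger AE4 is encoded by Slc4a9. Both intercalated types depend on the transcription factor Foxi1, share pump subunits and carbonic anhydrases, and sit among principal cells, which reabsorb water through Aqp2. Obstruction of a ureter dilates the collecting duct and injures its epithelium together with the rest of the tubule.

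The promoters of Slc26a4, of Hmx2, which encodes a homeobox transcription factor found in type B cells, and of the pump subunit genes Atp6v1g3 and Atp6v1b1 are shown because these genes mark the cells. Each is 300 bases of RefSeq sequence on GRCm38.p6, from 250 before to 50 after the gene's start, written 5′ to 3′ on the gene's strand. Capitals mark the letters TGTTTA or TGTTTG, or their reverse complements TAAACA or CAAACA, which are core letters of forkhead factor motifs such as that of Foxi1.
Slc26a4, chr12:31559935-31560234, minus strand: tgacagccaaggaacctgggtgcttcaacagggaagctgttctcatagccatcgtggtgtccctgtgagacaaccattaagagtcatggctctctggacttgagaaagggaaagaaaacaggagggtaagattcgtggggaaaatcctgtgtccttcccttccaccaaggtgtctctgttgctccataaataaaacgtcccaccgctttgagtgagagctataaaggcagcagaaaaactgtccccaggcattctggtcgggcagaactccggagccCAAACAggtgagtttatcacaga
Hmx2, chr7:131548507-131548806, plus strand: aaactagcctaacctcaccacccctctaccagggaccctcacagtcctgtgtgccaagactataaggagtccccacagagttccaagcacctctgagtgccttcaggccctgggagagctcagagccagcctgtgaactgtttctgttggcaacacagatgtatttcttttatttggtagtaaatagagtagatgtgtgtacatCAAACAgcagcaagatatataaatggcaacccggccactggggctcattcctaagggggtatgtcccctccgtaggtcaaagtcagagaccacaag
Atp6v1g3, chr1:138273488-138273787, plus strand: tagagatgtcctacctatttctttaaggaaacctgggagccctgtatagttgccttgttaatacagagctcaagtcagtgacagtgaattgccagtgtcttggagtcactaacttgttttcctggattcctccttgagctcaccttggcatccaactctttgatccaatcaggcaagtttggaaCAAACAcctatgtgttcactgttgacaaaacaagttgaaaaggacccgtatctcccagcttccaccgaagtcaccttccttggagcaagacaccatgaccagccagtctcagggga
Atp6v1b1, chr6:83742767-83743066, plus strand: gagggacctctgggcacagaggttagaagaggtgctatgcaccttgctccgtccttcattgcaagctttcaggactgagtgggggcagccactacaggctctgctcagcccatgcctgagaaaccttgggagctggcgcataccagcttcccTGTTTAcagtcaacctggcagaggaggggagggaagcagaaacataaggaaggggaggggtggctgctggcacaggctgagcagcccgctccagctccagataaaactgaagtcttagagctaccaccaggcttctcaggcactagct

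The search read both strands of promoters of 16 genes named here, of which 11 had an entry. Slc26a4, Hmx2 and Atp6v1g3 held 1 CAAACA each, and Atp6v1b1 and Car12 1 TGTTTA each. A second Hmx2 start had no match, and neither had Atp6v0a4, Atp6v1c2, Car15, Foxi1, Klk1 or Oxgr1. Among all 32851 RefSeq mouse promoters of this length, 13.4% held TGTTTA or its complement, 18.2% TGTTTG or its complement and 28.2% either. A match is a description of the letters, not of a bound site. Slc4a9, Insrr, Atp6v0d2, Rhbg and Bsnd were looked up without an entry. In the GENCODE annotation of GRCm38, the protein-coding gene Slc26a4 (ENSMUSG00000020651) spans chr12:31519827-31559969 on the minus strand, Hmx2 (ENSMUSG00000050100) chr7:131548773-131558014 on the plus strand and Insrr (ENSMUSG00000005640) chr3:87796951-87816101 on the plus strand.

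The libraries held 5938 deposited cells in sham, 2739 at day 2, 4504 at day 7 and 3695 after reversal, with 18649637 to 30462683 UMIs each. Filtering kept 3933, 2207, 4447 and 3236 of them. Type B cells had median UMI counts of 8826, 11060, 12221.5 and 9633 in the same order, against 2709, 6590, 5732 and 4937.5 over all kept cells. Their summed profiles hold 236091, 685357, 343579 and 375198 UMIs, so 1 UMI is worth 4.24, 1.46, 2.91 and 2.67 CPM (UMIs scaled to the same total in each sum) in the type B sums. The mitochondrial share of a type B cell had medians of 23.9% in sham, 13.6% at day 2, 8.40% at day 7 and 20.3% after reversal. In the other kept cells, which are all kept cells that are not type B, these medians were 33.8%, 9.30%, 2.97% and 8.18%, so this measure of cell quality moved with the time points, and its part in the results was not tested. Of 146 barcodes found in more than 1 library, 3 belonged to type B cells, and none was type B in both of its libraries.

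Of the 7 type B identity genes that the rule did not use, 3 were higher in type B than in type A cells of every library, Hmx2, Insrr and Slc4a9. Oxgr1 and Slc4a8 were lower in type B than in type A cells of all 4 libraries (median log2 ratios -0.42 and -0.60), Sctr was at -0.07, and Hmx3 had few UMIs. Slc4a9 was detected in 137 of the 157 cells, Foxi1 in 131, Hmx2 in 128 and Insrr, the insulin receptor-related receptor that senses alkaline pH, in 104. All of Hmx2, Slc4a9 and Insrr were detected in 84 cells, 2 of them in 48, 1 in 21 and none in 4. Slc4a1, which the rule itself holds below Slc26a4, had no UMI in any library's type B cells. The type A anion exchanger gene Slc26a7 had none either, but it was scarce in type A cells too (28.9, 0, 10.8 and 7.24 CPM, 10 UMIs in all), so it does not separate the types at this depth. Aqp6 reached at least 1 UMI in 24 of the 157 cells, and Slc26a4 in 9 of 148 type A cells, which were chosen by the same rule with Slc4a1 plus Aqp6 above Slc26a4. Of 368 cells with the same pump genes and exclusions, 63 stayed unresolved, 59 because neither exchanger gene nor Aqp6 had a UMI and 4 because of a tie.

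At the edges of the rule, 13 members had exactly 1 Slc26a4 UMI and 3 had exactly 3 pump UMIs. Just outside, 25 cells met every other condition with 1 or 2 pump UMIs, 3 of them with 2, and 62 had none. A further 50 cells were left out by Ptprc, Egfl7 or Slc12a1 alone, and 15 by the mitochondrial limit. Higher counts of Aqp2 and Slc34a1, genes of other tubule cells, were found in a few members. At least 3 Aqp2 UMIs were found in 4 sham, 3 day 2 and 1 day 7 cells, and 10 or more UMIs of the proximal phosphate transporter gene Slc34a1 in 1 sham cell, with 38 UMIs, and 1 cell after reversal, with 80. No member had 3 or more UMIs of the distal convoluted tubule genes Slc12a3 and Pvalb together. Some other tubule transcripts were widespread, with the proximal gene Kap in 26 of 27 sham cells and Umod described below.

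Type B cells were 0.686% of kept cells in sham (27 of 3933, exact Clopper-Pearson 95% interval 0.453 to 0.997%) and 2.85% at day 2 (63 of 2207, 2.20 to 3.64%). At day 7 they were 0.720% (32 of 4447, 0.493 to 1.01%) and after reversal 1.08% (35 of 3236, 0.754 to 1.5%). The day 2 interval lies above the other 3, which overlap each other. Counted among intercalated cells alone, the share was 55.1% of 49 in sham (40.2 to 69.3%), 48.1% of 131 at day 2 (39.3 to 57.0%), 33.0% of 97 at day 7 (23.8 to 43.3%) and 38.5% of 91 after reversal (28.4 to 49.2%). All 4 of these intervals overlap. Of intercalated plus principal cells, type B made up 24.3%, 33.2%, 20.3% and 25.5%. These intervals cover counting error only, and the shares also follow how many of each other cell type entered the library.

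**Figure D1:**
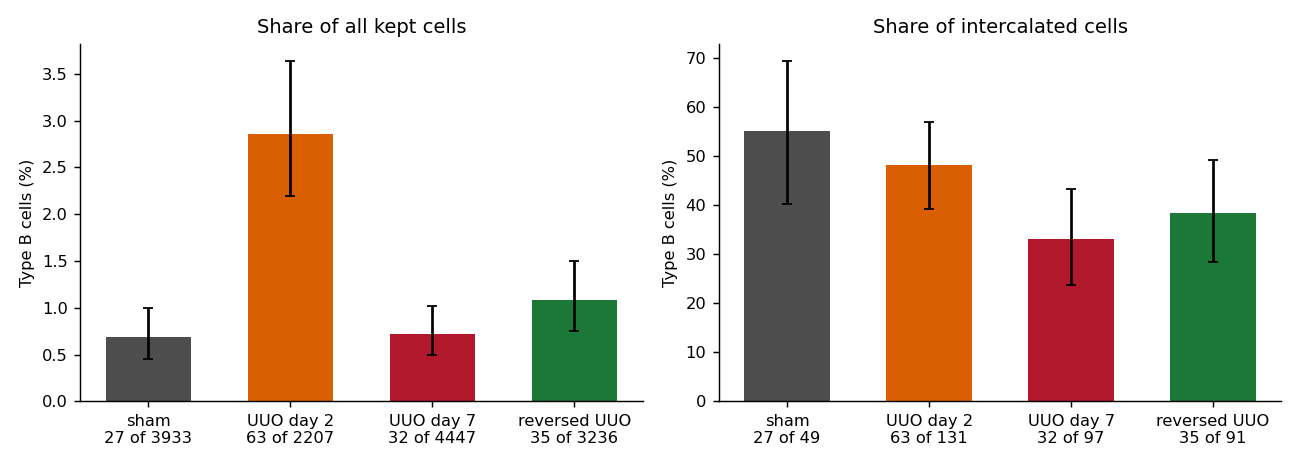
Type B cells as a percentage of all kept cells (left) and of intercalated cells (right) in each library. Bars are shares, error bars exact 95% binomial intervals for counting error, and the labels give the cells counted. The day 2 bar stands at 2.85% of kept cells, and the 4 shares among intercalated cells run from 33.0% to 55.1%.

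The share of cells detected depends on depth. With every cell thinned to 1000 UMIs before the rule was applied, type B cells were 0.432% of sham, 1.13% of day 2, 0.405% of day 7 and 0.865% of reversal cells, with day 2 the highest of these values. Among intercalated cells the thinned shares were 44.7, 24.3, 17.5 and 30.8%, against the unthinned 55.1, 48.1, 33.0 and 38.5%. With the mitochondrial limit at 20% the sham share of kept cells was 1.23% and the reversal share of intercalated cells 26.2%; the median other sham cell stood at 33.8% mitochondrial UMIs.

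The genes that chose the cells are given as a description. Slc26a4 stood at 1343 CPM in sham, 782 at day 2, 987 at day 7 and 1221 after reversal. Atp6v1g3, a pump subunit confined largely to intercalated cells, stood at 7794, 6070, 5175 and 6644 CPM. Atp6v0d2, another such subunit, was at 678, 709, 850 and 805 CPM. Single cells held from 1 to 58 Slc26a4 UMIs, and the median cell had 13.9 per 10000 UMIs in sham, 5.79 at day 2, 7.27 at day 7 and 11.8 after reversal. All ranges of single cells overlapped, and the rule itself sets the lowest value. In sums such as these, fewer expressing cells and less RNA per cell cannot be told apart, although each member has at least 1 Slc26a4 UMI.

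Among genes of type B identity that the rule did not use, Insrr and Oxgr1 were lower in both obstructed libraries than in sham, while Slc4a9 stayed within a narrow range. A gene is called here if its CPM differs by at least 2-fold (log2 ratio of CPM + 1) and the exact 95% counting interval of the ratio excludes 0. By this call 2 of the 4 identity genes with at least 10 summed UMIs fell from sham to day 2 and none rose (median -0.87, or -0.19 over all list genes with a UMI), where 5.72% of all 7680 genes tested were called lower and 5.13% higher (median -0.01). Insrr was at 449 CPM in sham, 162 at day 2, 84.4 at day 7 and 296 after reversal, and it was detected in 23 of 27, 39 of 63, 14 of 32 and 28 of 35 cells. Its log2 ratio was -1.47 (interval -1.86 to -1.07) from sham to day 2, -0.93 from day 2 to day 7 and 1.80 (1.20 to 2.43) from day 7 to reversal. In cells thinned to 1000 UMIs, 40.7% of sham cells held Insrr, 11.1% at day 2, 9.38% at day 7 and 22.9% after reversal, against at most 0.25% of other kept cells.

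Oxgr1, the receptor for α-ketoglutarate that acts in type B cells, was at 487, 146, 96.0 and 208 CPM in the same order. It fell by 1.73 on the log2 scale from sham to day 2, and its ratio of 1.11 from day 7 to reversal dropped to 0.91 without the cell that holds most of its UMIs. Oxgr1 was higher in type A cells of every library, at 530.5, 236, 170 and 232 CPM, and there also lower after obstruction. Slc4a9 was at 322, 296, 268 and 293 CPM and Hmx2 at 822, 677, 530 and 1061 CPM. The largest Hmx2 ratio, 1.00 (0.74 to 1.26) from day 7 to reversal, lies on the 2-fold line and becomes 0.90 without its top cell. The related gene Hmx3 had 0 UMIs in sham and at day 7, 2.92 CPM at day 2 and 18.7 after reversal. Slc4a8 and the secretin receptor gene Sctr stayed at or below 16.0 CPM in every library.

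From day 7 to reversal 3 of 4 identity genes were called higher and none lower (median 1.05), where 3.91% of 7129 genes tested were called higher and 4.24% lower (median -0.11). Of the 3, Hmx2 at 0.90 and Oxgr1 at 0.91 lie under the 2-fold line without their top cells. From day 2 to day 7 none of 5 was called, against 4.3% of 8116 genes called higher and 2.07% lower (median 0.16). Reversal against sham gave 1 of 4 lower, Oxgr1 at -1.22, against 4.26% of 6414 genes higher and 2.17% lower (median 0.07). The same shares over all genes apply to the counts given below for other gene lists in type B cells. Reversal against day 7 and day 7 against day 2 share the day 7 library, and both day 2 and reversal are set against the same sham library, so the comparisons are not independent. The counts over all genes move with the scaling. From sham to day 2 they were 394 higher and 439 lower, or 496 and 335 with TMM factors and 300 and 636 with mitochondrial UMIs left out of the total. From day 2 to day 7 they were 349 and 168, or 216 and 240 with TMM factors. From day 7 to reversal they were 279 and 302, or 384 and 221 without mitochondrial UMIs, and from sham to reversal 273 and 139, or 204 and 197.

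**Figure D2:**
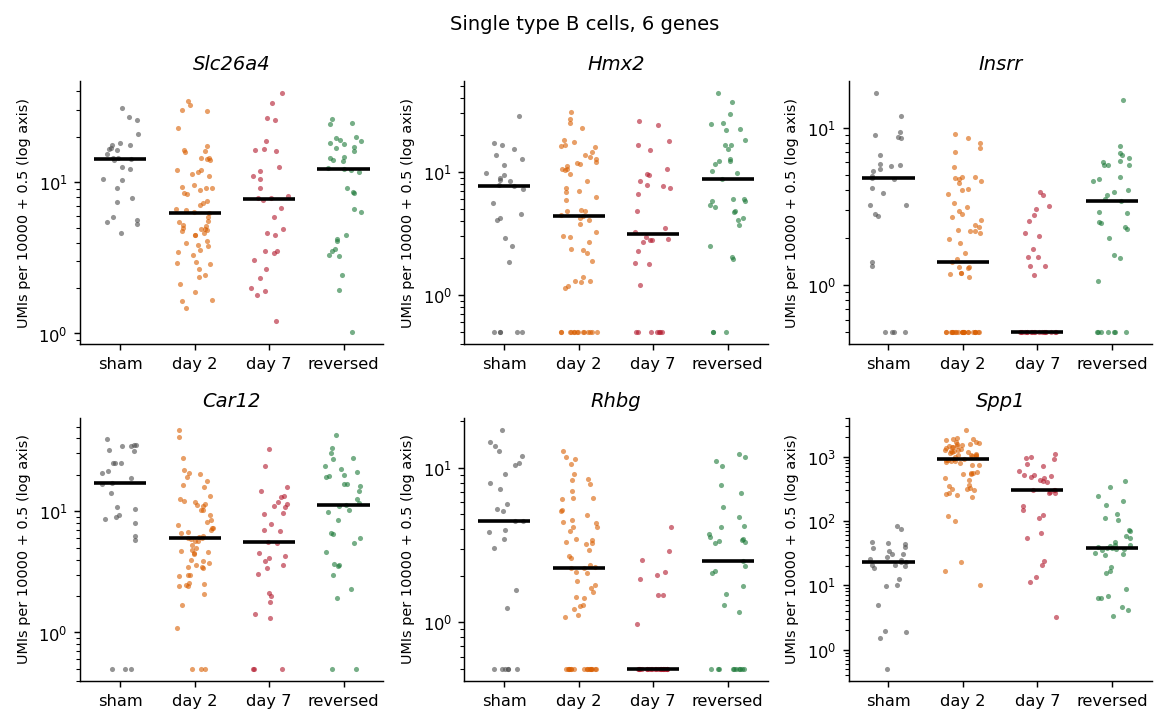
UMIs per 10000 in single type B cells of each library (log axis, with a constant of 0.5 added so that cells at 0 can be drawn) for 6 genes. Each point is a cell and each black line the median cell. The Insrr and Rhbg medians lie at 0 at day 7, and the Spp1 median is highest at day 2, at 922 per 10000.

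Most genes shared by both intercalated types were uncalled, while Car12, Rhcg and Rhbg were each called lower at a step of the obstruction. Foxi1 was at 610, 464, 384 and 453 CPM, its partner Tfcp2l1 at 839, 743, 844 and 888, and the cell surface gene Hepacam2 at 500, 422, 480 and 397, with none of them called in any of the 4 comparisons. Car2, the cytosolic carbonic anhydrase, was likewise uncalled at 2342, 1916, 2422 and 3257 CPM. Of the 10 genes tested from sham to day 2, 2 were called lower, Car12 and Rhcg, and none higher.

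Car12, a membrane carbonic anhydrase, was at 2003 CPM in sham, 735 at day 2, 634 at day 7 and 1271 after reversal. It fell by 1.44 on the log2 scale (interval -1.63 to -1.26) from sham to day 2, or by 1.12 with every cell weighted equally. Its ratio from day 7 to reversal was 1.00, on the 2-fold line. Rhbg, the basolateral ammonia channel, was at 546, 282, 55.3 and 333 CPM and was detected in 21 of 27, 46 of 63, 9 of 32 and 25 of 35 cells. It fell by 2.33 (-3.07 to -1.65) from day 2 to day 7 and rose by 2.57 (1.88 to 3.33) from day 7 to reversal. Thus the lowest library for Rhbg was day 7, while Car12 was already near its lowest level at day 2. The apical ammonia channel gene Rhcg was at 542, 260, 146 and 267 CPM, with a log2 ratio of -1.06 from sham to day 2 that becomes -0.98 without its top cell. Car15, an extracellular carbonic anhydrase, was uncalled at 280, 217, 143 and 243 CPM.

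Proton pump genes moved by less than 2-fold, with 1 exception, Atp6ap2. The kidney-enriched subunit genes Atp6v1b1 (606, 400, 341 and 589 CPM), Atp6v0a4 (597, 464, 498 and 674) and Atp6v1c2 (699, 442, 381 and 704) had a median log2 ratio of -0.60 from sham to day 2, -0.21 from day 2 to day 7, 0.79 from day 7 to reversal and 0.01 from sham to reversal. None of the 3 was called in any comparison, although all 3 had ratios below 0 at day 2 against sham and above 0 on reversal against day 7. Of 15 widely expressed subunit genes, 12 had ratios below 0 from sham to day 2 (median -0.52) and all 15 above 0 from day 2 to day 7 (median 0.44). Only Atp6ap2, which encodes an accessory subunit known as the prorenin receptor, was called among them. It went from 868 CPM in sham to 379 at day 2, a log2 ratio of -1.19 (-1.46 to -0.92), and stood at 524 at day 7 and 600 after reversal. In type A cells the same 15 genes had a median of 0.05 from sham to day 2, with 1 called lower. Principal cells had 2 of 14 called lower (median -0.21). Of the 3 kidney-enriched genes, type A cells had 1 called lower at that step (median -0.38). Over all genes tested, 2.63% were called lower in type A and 5.02% in principal cells. From day 7 to reversal the kidney-enriched median in type A cells was 0.51, with 0 called.

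Bsnd, which encodes barttin, an accessory protein of chloride transport, was at 178, 87.5, 20.4 and 147 CPM, with its lowest level at day 7 as for Rhbg. Its ratio of -1.01 from sham to day 2 becomes -0.85 without its top cell. It fell by 2.05 (-3.33 to -0.96) from day 2 to day 7 and rose by 2.79 (1.68 to 4.07) from day 7 to reversal. The sodium pump β subunit gene Atp1b1 (1855, 2505, 2416 and 1676 CPM) and the pump regulator gene Fxyd2 (4748, 3230, 2771 and 4136 CPM) were uncalled. Of the ion transport genes tested, 3 of 10 were called lower from sham to day 2, 1 of 8 lower from day 2 to day 7 and 3 of 9 higher from day 7 to reversal. Over all genes tested, 5.72, 2.07 and 3.91% were called in these directions at the same steps. The 3 ion transport genes higher after reversal were Bsnd, Slc4a4 and Kcnj15. Slc4a4, a bicarbonate cotransporter gene of the proximal tubule, had 72.0% of its sham UMIs and 66.7% of its reversal UMIs in 1 cell each. Kcnj15, a potassium channel gene, had 72.7% in 1 cell, and its ratio from day 7 to reversal goes from 2.15 to 0.47 without it.

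Receptor genes moved in both directions. Ptger3, a prostaglandin E2 receptor, was at 25.4 CPM in sham, 197 at day 2, 134 at day 7 and 95.9 after reversal, a rise of 2.91 (1.78 to 4.29) to day 2, with a ratio of 1.88 (0.65 to 3.33) from sham to reversal. Adora1, an adenosine receptor, was at 8.47, 42.3, 46.6 and 16.0 CPM. The principal cell enzyme gene Hsd11b2, which was on the receptor list because it guards the mineralocorticoid receptor, had 55.7% of its sham UMIs in 1 cell and is not read further. In all, 2 of 8 receptor genes were called higher and 2 lower from sham to day 2, and of the lower calls Hsd11b2 goes from -1.49 to -0.36 without its top cell. The vasopressin receptor gene Avpr1a was steady at 280, 226, 204 and 227 CPM and type A cells had 154, 177, 146 and 217 CPM.

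A pair of genes on the type A list, Adgrf5 and P2ry14, were higher in type B cells of all 3 later libraries than in sham. The median log2 ratio of type B over type A was -3.02 for Adgrf5. For P2ry14 it was only -0.61, from -3.50 to -0.46 over the libraries. Adgrf5, an adhesion receptor, was at 16.9 CPM in sham, 125 at day 2, 256 at day 7 and 90.6 after reversal, and was detected in 4, 32, 19 and 11 type B cells. It rose by 2.82 (1.46 to 4.53) from sham to day 2. The step of 1.02 from day 2 to day 7 becomes 0.79 without the cell that holds most Adgrf5 UMIs. P2ry14, a receptor for UDP-glucose, was at 12.7, 123, 221 and 109 CPM in 2, 35, 22 and 13 cells, a rise of 3.17 (1.65 to 5.12) to day 2. Type A cells had 869 to 1186 CPM of Adgrf5 and 154 to 305 CPM of P2ry14, so Adgrf5 was far below the type A level in every library, while P2ry14 at day 7 reached 221 CPM in type B against 305 in type A. The other kept cells had 33.8 to 82.5 CPM of Adgrf5. In cells thinned to 1000 UMIs, Adgrf5 was present in 3.70, 6.35, 15.6 and 5.71% of type B cells. In other kept cells the shares were 2.48, 4.48, 6.57 and 6.87%, with overlapping intervals. The other kept cells include type A cells, so free RNA is not separated from expression by this measure. With an estimate of free RNA, described below, subtracted, the Adgrf5 ratio goes from 2.82 to 2.95 for sham to day 2. It goes from 1.02 to 1.07 for day 2 to day 7 and from 2.35 to 2.46 for sham to reversal, and the source of these transcripts was not tested. P2ry14 was present in 0, 6.35, 18.8 and 11.4% of thinned type B cells against 0.128 to 1.95% of other kept cells. Of the other type A list genes, Dmrt2 was at 0, 1.46, 23.3 and 16.0 CPM against 164 to 249 in type A cells. Avpr1a, also on that list and described with the receptors, was above its type A level in all 4 libraries.

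Tubule injury genes rose in type B cells at day 2 and were lower again after reversal. Of 15 tested from sham to day 2, 13 were called higher and none lower (median 3.27, or 2.58 with genes at 0 in a library set to a floor of 3 counts). From day 2 to day 7, 1 of 16 was called higher and 5 lower (median 0.10). The higher call, Vim at 1.56, becomes 0 with an estimate of free RNA subtracted, described below. Of the lower calls, Cp goes from -1.09 to -0.84 and Cryab from -1.07 to -0.98 without the top cell. From day 7 to reversal, 11 of 15 were called lower and none higher (median -1.38). Among these, Anxa2 goes from -1.11 to -0.92 without its top cell. After reversal, 9 of 14 were called higher against sham (median 1.72, or 1.12 with zeros at the floor). Of these, Vim, at 0 UMIs in sham, goes from 4.79 to 0 with free RNA subtracted. With sham at the floor, Vim was at least 2.10-fold higher. Krt8 goes from 1.16 to 0.93 without its top cell. Cp, found in 5 of 35 cells with 62.5% of its UMIs in 1 cell, goes from 3.06 to 1.72 without that cell. Likewise Clu goes from 1.88 to 1.44 and Cd24a from 2.59 to 2.23 without the top cell. Type A cells had 10 of 15 called higher from sham to day 2 (median 2.79) and principal cells 13 of 15 (median 2.57), where 4.13% of all genes tested in type A and 10.3% of those in principal cells were called higher, and 2.63% and 5.02% lower. Between day 7 and reversal the counts differed more, with 3 of 17 higher and 1 lower in type A (median -0.28) and 6 of 19 lower in principal cells (median -0.74), although these differences between cell types were not tested. Over all genes at that step, 3.91% were called higher and 2.29% lower in type A cells, and 2.25% higher and 4.79% lower in principal cells.

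Spp1, which encodes the secreted phosphoprotein osteopontin, was the most abundant transcript of day 2 type B cells. It stood at 2160 CPM in sham, 98236 at day 2, 39973 at day 7 and 7663 after reversal, and was found in 26 of 27 sham cells and in every later cell. The median cell held 22.6, 922, 304 and 36.9 Spp1 UMIs per 10000. The log2 ratio was 5.51 (5.38 to 5.63) from sham to day 2, -1.30 from day 2 to day 7, -2.38 from day 7 to reversal and 1.83 from sham to reversal. In every library the type B sum was above that of type A cells (1408, 48244, 24468 and 5084 CPM) and of all other kept cells (1015, 24382, 7958 and 4746 CPM). A gene this abundant lowers the CPM of all others, and trimmed-mean (TMM) scaling gave log2 factors of 0.01 for sham and -0.09 for day 2, which shifts every ratio of day 2 over sham upward by their difference.

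Clu, the chaperone clusterin, was at 186, 6152, 2547 and 690 CPM and rose by 5.04 (4.61 to 5.50) from sham to day 2. Cp, the copper-carrying ferroxidase ceruloplasmin, went from 4.24 CPM in sham to 633 at day 2, 297 at day 7 and 42.6 after reversal, a rise of 6.92 (4.68 to 9.17). Type A cells had 0, 153, 21.6 and 82.1 CPM of Cp. Cd24a, a surface antigen of injured tubule, was at 67.8, 1018, 946 and 413 CPM and rose by 3.89 (3.19 to 4.69) to day 2. Clu and Cp were thus highest at day 2, while Cd24a was about level between day 2 and day 7 (log2 ratio -0.11).

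The keratin genes of simple epithelia were highest at day 7, with Krt8 at 72.0, 280, 425 and 163 CPM and Krt18 at 106, 336, 428 and 176 CPM. Krt7 was uncalled throughout, at 576, 430, 637 and 434 CPM. S100a6, a calcium-binding protein gene, was at 8.47, 273, 419 and 69.3 CPM and fell by 2.58 (-3.23 to -1.98) from day 7 to reversal. Lcn2, the neutrophil gelatinase-associated lipocalin, had 0 UMIs in sham and 451 CPM at day 2, at least 35.5-fold higher than a floor of 3 counts in the sham sum, but 42.4% of its day 2 UMIs lay in 1 cell and other kept cells averaged 999 CPM. Havcr1, the kidney injury molecule of proximal cells, reached at most 2.91 CPM. The stress chaperone gene Cryab was at 42.4, 258, 122 and 34.6 CPM and was back within 2-fold of sham after reversal.

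**Figure D3:**
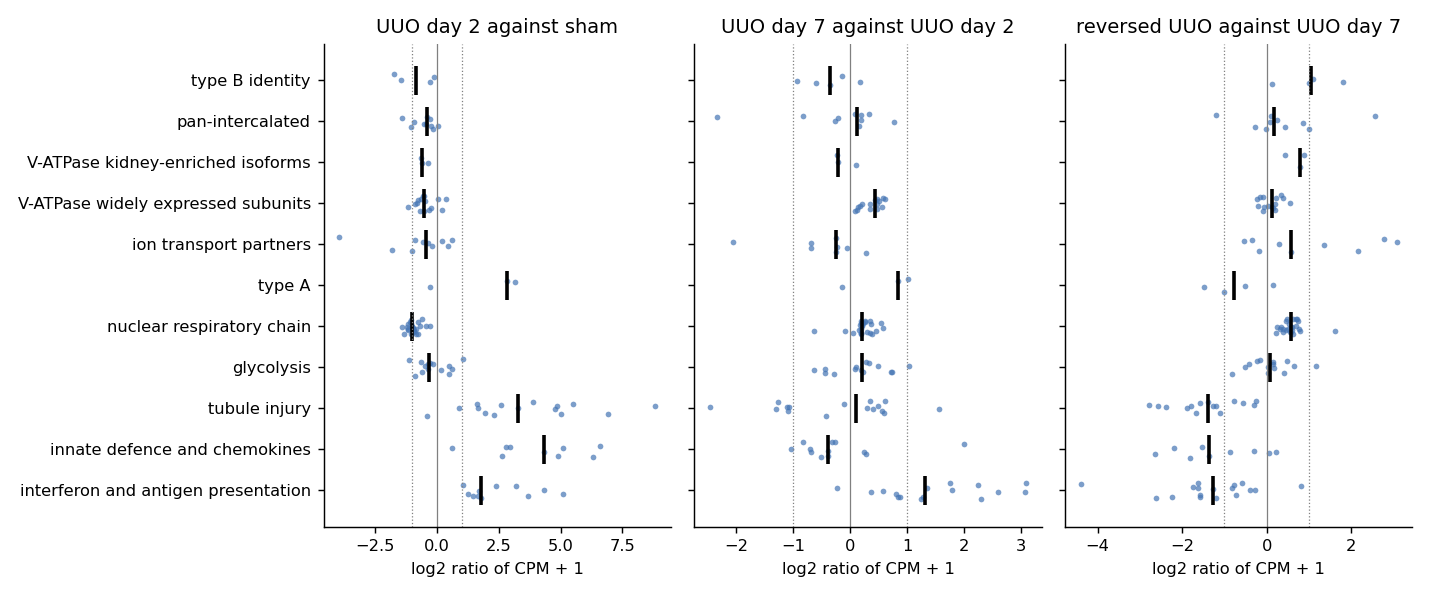
Log2 ratios of CPM + 1 in type B cells for 3 comparisons, with 1 point for each gene that has at least 10 summed UMIs and a black line at the list median. Dotted lines mark a 2-fold difference. The tubule injury medians are 3.27, 0.10 and -1.38, and the nuclear respiratory chain medians -1.0, 0.21 and 0.58.

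Innate defence genes rose alongside. Of 9 tested, 8 were called higher from sham to day 2 (median 4.32, or 2.63 with the 5 genes at 0 in sham set to the floor). One of the 8, Il34, was at least 1.49-fold higher with sham at the floor, a bound under the 2-fold line. The list had 1 of 12 higher from day 2 to day 7, and 5 of 9 lower from day 7 to reversal (median -1.36). The list holds the neutrophil genes S100a8 and S100a9. S100a8 had no UMI in sham in type B, type A or principal cells, and at day 2 it stood at 94.8, 66.3 and 88.3 CPM in these classes and at 339 CPM in other kept cells. S100a9 was likewise at 78.8, 58.9 and 55.2 CPM at day 2 and 222 in other kept cells. With the free RNA estimate described below subtracted, the S100a8 ratio from sham to day 2 goes from 6.58 to 6.36. That of S100a9 goes from 6.32 to 6.16, and the source of these transcripts was not tested. Both genes had 0 UMIs in sham, so these ratios depend on the constant added. With sham at the floor, S100a8 was at least 7.46-fold and S100a9 at least 6.20-fold higher at day 2. Defb1, an epithelial defensin, was at 309, 1930, 1185 and 461 CPM. Pigr, which carries secretory antibodies across epithelium, was at 4.24, 322, 178 and 37.3 CPM, a rise of 5.95 (3.70 to 8.20) to day 2. Cxcl17, a mucosal chemokine gene, was at 4.24, 392, 84.4 and 21.3 CPM, in 1, 50, 14 and 2 cells. Type A cells had 0, 88.3, 13.5 and 7.24 CPM of Cxcl17 and other kept cells at most 16.3, so the day 2 level was highest in type B among the classes measured. The matrix protease gene Mmp7 reached 177 CPM at day 2, with 73.6% of the UMIs in 1 cell.

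Most interferon and antigen presentation genes tested were called higher from sham to day 2, 9 of 11 (median 1.79). The counts were 9 of 16 higher from day 2 to day 7 (median 1.32), and from day 7 to reversal 7 of 17 were called lower (median -1.26). Against sham, 7 of 9 were called higher after reversal (median 1.78). Some of these calls end under other settings. Irf7, at 0 in sham, was at day 2 at least 1.49-fold higher with sham at the floor, a bound under 2-fold, and Ifit1 from day 2 to day 7 goes from 1.35 to 0.84 without 1 cell. B2m, the light chain of class I molecules, was at 136, 470, 704 and 466 CPM, and Ifitm3, an interferon-induced membrane protein gene, at 16.9, 229, 297 and 179 CPM.

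The class II genes of this list moved with phagocyte markers. Cd74 was at 59.3, 311, 1470 and 832 CPM and H2-Aa at 8.47, 86.1, 736 and 307 CPM, while Cd74 in the other kept cells stood at 1111, 6339, 21329 and 9123 CPM. The 8 phagocyte markers together summed to 76.2, 664, 3071 and 1554 CPM in type B cells, which is 5.06, 5.05, 8.54 and 9.75% of their level in other kept cells. Ptprc was 0 by the rule, and 5 of the 8 markers had a UMI in sham and 7 in each later library. Lyz2 went from 0 UMIs in sham to 159 CPM at day 2, 669 at day 7 and 349 after reversal, and type A and principal cells had like sums of phagocyte markers (106 and 103 CPM in sham, 4954 and 3627 at day 7). With an estimate of free RNA subtracted, made from 16 phagocyte, T cell and endothelial marker genes, the interferon list had medians of 1.71 from sham to day 2, 1.02 from day 2 to day 7 and 0.93 from sham to reversal. The ratios of Cd74 (2.37) and H2-Aa (3.20) from sham to day 2 then become 0. So do those of Cd74, 1 of the 16 marker genes, from day 2 to day 7 (2.24) and from sham to reversal (3.79). Other class II ratios remain. From day 2 to day 7 H2-Aa goes from 3.08 to 6.66, H2-Ab1 from 3.10 to 4.15 and H2-Eb1 from 3.45 to 6.54. From sham to reversal they go from 5.02 to 2.78, 4.34 to 6.10 and 3.96 to 3.45. Where the subtracted level is 0, as for H2-Aa in sham and at day 2, the ratio depends on the constant added. The ratios of H2-D1 and H2-K1 from sham to reversal become 0.93 each. That estimate was 6.28, 5.46, 8.80 and 10.1% of type B UMIs, and it removes its own marker genes by construction.

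Nuclear genes of the mitochondrial respiratory chain were lower in type B cells at day 2. Of 25 genes, all had ratios below 0 from sham to day 2 and 13 were called lower (median -1.0). This median lies on the 2-fold line and ran from -1.17 to -0.90 over the alternative settings, so the count of 13 depends on the line while the direction of the median did not change. The 25 genes summed to 44136 CPM in sham, 22396 at day 2, 26940 at day 7 and 39702 after reversal. From day 2 to day 7 none was called (median 0.21, 23 of 25 above 0). From day 7 to reversal all 25 had ratios above 0 and 1, Sdhb, a subunit of succinate dehydrogenase, was called higher (median 0.58), and reversal against sham had a median of -0.20 with none called.

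Among these genes, Cox7a2, a cytochrome c oxidase subunit, was at 2389, 944, 1234 and 2031 CPM, Uqcrq, a subunit of complex III, at 1618, 601, 873 and 1229 CPM, and Atp5b, the catalytic subunit of ATP synthase, at 2402, 1177, 1610 and 2412 CPM. The median cell held 31.2, 15.4, 19.4 and 35.7 UMIs per 10000 of Cox6c, another oxidase subunit, so the sums were not set by a few cells for this gene. Type A cells summed to 38050, 34060, 30182 and 33137 CPM over the same genes, with medians of -0.17 from sham to day 2 and 0.14 from day 7 to reversal and none called. Principal cells summed to 30756, 23895, 18522 and 24614 CPM and had none called from sham to day 2 (median -0.45). Other kept cells summed to 33097, 20159, 13851 and 20967 CPM. Type B cells thus had the highest sum of these 4 classes in sham and after reversal and stood below type A cells at day 2 and day 7, although with 1 library a group the difference between the classes could not be tested.

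The 11 genes encoded in mitochondria had medians of -0.68, -0.56, 0.92 and -0.37 from sham to day 2, day 2 to day 7, day 7 to reversal and sham to reversal. None was called except 3 of 11 that were higher after reversal than at day 7. The rule caps their share of a cell, and with a limit of 20% in place of 50% the nuclear respiratory chain median from day 7 to reversal was 0.38. Glycolysis genes had 1 of 14 called lower from sham to day 2, Tpi1 (652, 298, 416 and 578 CPM), with a median of -0.33. The nuclear RNA Malat1 moved the other way, at 34114, 85554, 112810 and 72935 CPM.

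**Figure D4:**
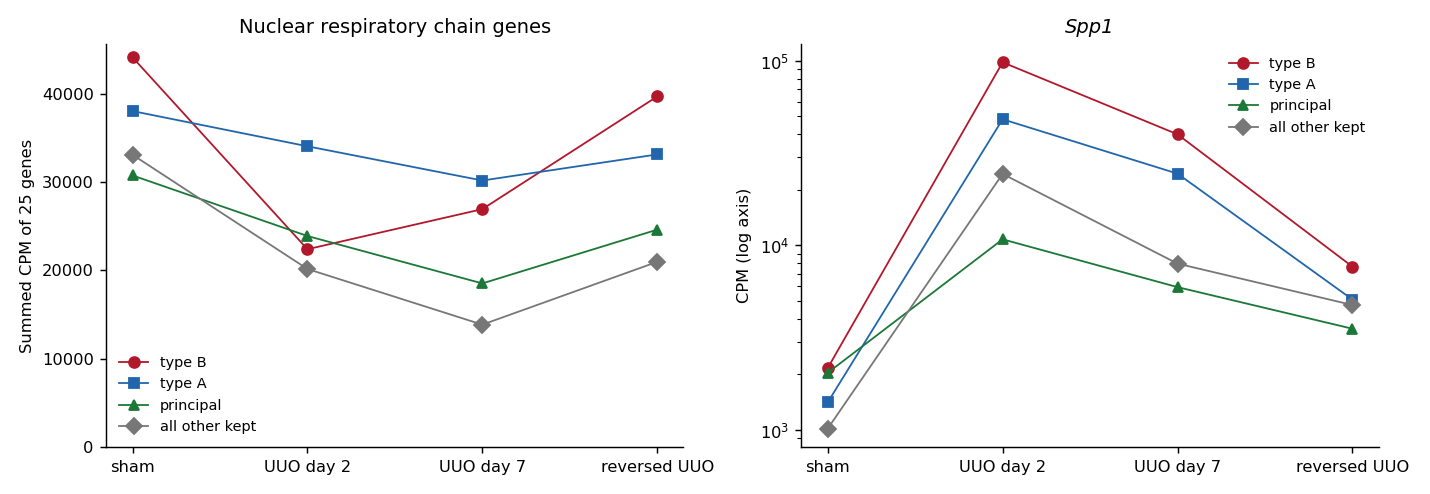
Left, summed CPM of the 25 nuclear respiratory chain genes, and right, CPM of Spp1 on a log axis, in the summed type B, type A, principal and other kept cells of each library. Each point is 1 library's sum and the lines only join libraries. The type B respiratory sum goes from 44136 to 22396 CPM between sham and day 2, while the type B Spp1 sum goes from 2160 to 98236 CPM.

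Genes of the connecting tubule, where many type B cells lie, varied widely among members and libraries. Klk1, which encodes tissue kallikrein, was at 2698 CPM in sham, 2835 at day 2, 140 at day 7 and 2034 after reversal, in 22 of 27, 44 of 63, 10 of 32 and 22 of 35 cells. It fell by 4.33 (-4.77 to -3.92) from day 2 to day 7 and rose by 3.85 (3.43 to 4.30) from day 7 to reversal. The top cell held 21.2 to 43.5% of the UMIs in each library, and without the top cell the day 2 to day 7 ratio was -4.02. Type A cells had 550, 429, 27.0 and 176 CPM of Klk1 and were also lowest at day 7, whereas principal cells had 2921, 222, 520 and 3657 CPM and were lowest at day 2.

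S100g, the calcium-binding protein calbindin-D9k, was at 771, 4255, 1138 and 770 CPM in type B cells, a rise of 2.46 (2.25 to 2.69) to day 2 and a drop of 1.90 to day 7. Type A cells were also highest at day 2 (1302, 3948, 407 and 835 CPM), and principal cells were lowest at day 2 (20200, 1015, 3759 and 15319 CPM). Umod, the uromodulin gene of the thick ascending limb, was at 258, 1814, 972 and 778 CPM in type B cells and 135, 479, 167 and 130 CPM in type A cells. In thinned cells Umod was found in 61.9% of day 2 type B cells, 34.0% of type A cells and 29.3% of other kept cells. The other limb markers were low, with Slc12a1 held at 2 UMIs or fewer by the rule and Egf at 42.4, 11.7, 5.82 and 26.7 CPM, and the part of free RNA in the Umod level was not tested.

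Proximal tubule genes, among them Kap, Acsm2, Miox, Slc27a2, Slc34a1 and Pck1, were among the 10 strongest drops from sham to day 2 or rises from day 7 to reversal, and several rested on few cells. Kap, an androgen-regulated proximal gene, was at 1893, 55.4, 166 and 4078 CPM, with 40.9% of sham and 89.6% of reversal UMIs in 1 cell. Slc34a1 was at 356, 26.3, 5.82 and 288 CPM, with 45.2% and 74.1% in 1 cell. Other kept cells had 2504, 348, 89.1 and 921 CPM of Slc34a1 and moved in the same directions. The genes Ass1, Slc27a2 and Pck1, at 0 UMIs at day 7, were at least 18.9-, 17.7- and 11.6-fold higher after reversal than a floor of 3 counts in the day 7 sum. The top cell held 58.1% of the Ass1, 91.4% of the Slc27a2 and 76.3% of the Pck1 UMIs.

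Among the 10 strongest changes in each direction, some have not yet been described. From day 2 to day 7 the strongest rises were Apoe (104 to 1540 CPM), the class II genes H2-Eb1, H2-Ab1 and H2-Aa, the antibody gene Igkc and the complement genes C1qa and C1qc, and Apoe stood at 8477 CPM in other kept cells at day 7. Guca2b, the uroguanylin gene, was at 254, 754, 93.1 and 173 CPM and fell by 3.00 (-3.56 to -2.49) from day 2 to day 7. Of its day 2 UMIs 49.5% lay in 1 cell, and without that cell the ratio was -2.06. After reversal, Fgg, the fibrinogen γ chain gene, had gone from 163 CPM at day 7 to 2.67, but only 7 of 32 day 7 cells held it. Rhob, a small GTPase gene (8.47, 101, 122 and 10.7 CPM), and Trib1, a pseudokinase gene (29.6, 80.3, 105 and 16.0 CPM), also fell. Type A cells had 57.1 to 67.4 CPM of Rhob in all 3 later libraries, so the low Rhob level after reversal was seen in type B and not in type A cells, without a test of that difference.

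Some genes were still lower after reversal than in sham. Kcnq1, a potassium channel gene, was at 110, 54.0, 37.8 and 24.0 CPM (log2 ratio to sham -2.15, interval -3.37 to -1.04). Pgam2, the muscle form of phosphoglycerate mutase, was at 326, 93.4, 29.1 and 101 CPM (-1.68, -2.27 to -1.10). Malrd1 was at 144, 26.3, 32.0 and 53.3 CPM (-1.42, -2.28 to -0.59). These 3 genes were at their sham level in none of the later libraries, and each was detected in at least 13 of the 27 sham cells. Aqp2, the strongest drop of this comparison at 203, 94.8, 69.9 and 18.7 CPM, had 45.8% of its sham UMIs in 1 cell.

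Other lists had few calls from sham to day 2. Of 10 epithelial junction genes, Cldn3 (4.24, 172, 99.0 and 48.0 CPM) and Cldn4 (123, 298, 215 and 136 CPM) were called higher from sham to day 2, the former by 5.05 (2.79 to 7.30), while Cdh1, Epcam and Cldn8 were uncalled. Of 84 ribosomal protein genes none was called from sham to day 2 (median -0.05). Immediate-early and heat-shock genes, which respond to dissociation, had 1 of 16 called higher and 1 lower from sham to day 2 (median 0.03). Later steps had 3 of 16 higher and 1 lower from day 2 to day 7, 1 of 15 higher and 2 lower from day 7 to reversal, and 1 of 14 higher and 3 lower from sham to reversal. The higher gene of the last comparison was Dusp1, a phosphatase gene (log2 ratio 3.14), and the lower ones were Dnajb1 (-2.15), Egr1 (-1.45, or -0.65 without its top cell) and Fos (-1.18, or -0.48 without its top cell). In this list Fos had a ratio of -1.17 from day 7 to reversal that turns to 0.25 without the cell holding 64.4% of its UMIs. Other calls of the list also end without 1 cell. Those from sham to day 2 become 0.97 for Hspa1a and -0.97 for Zfp36. The rises to day 7 become 0.22 for Atf3 and 0.19 for Zfp36, and the ratios after reversal become -0.53 for Atf3 and 0.96 for Egr1. Of the Notch genes, which set intercalated against principal fate, Dll1 (21.2, 27.7, 66.9 and 56.0 CPM) was called higher from day 2 to day 7 at 1.24, a ratio of 0.96 without its top cell. Adam10, a protease gene of this pathway, was called higher from sham to day 2 at 1.45, and Jag1 (229, 166, 178 and 176 CPM) and Hes1 (250, 296, 224 and 320 CPM) were uncalled. At most 3 cell cycle genes reached the count minimum in any comparison between time points.

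Within each library, type B was also set beside type A. The rule itself is based on this contrast, so the values below describe the cells and carry no test. At least 2-fold higher in type B were 3.16% of genes in sham, 2.75% at day 2, 3.7% at day 7 and 2.84% after reversal, and at least 2-fold lower were 3.11, 5.04, 4 and 7.09%. Of 8337 genes with at least 30 UMIs over both classes, 1761 had the same sign in all 4 libraries, 595 of them higher in type B and 1166 lower. Among the highest medians were those of Hmx2 (log2 4.87 of the 4 ratios, with type A at 77.2, 82.8, 0 and 12.1 CPM), Ank, a pyrophosphate transporter (4.84), Aldh1l2, a mitochondrial folate enzyme, Syt7, a synaptotagmin (4.65), Chl1 and Lsamp (4.26). Where type A had 0 UMIs these medians depend on the constant added, and with zeros at a floor of 3 counts they were 4.71 for Hmx2, 3.11 for Ank, 2.40 for Syt7 and 3.69 for Lsamp.

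Several of these genes were low but recurrent in type B cells. Lsamp, a neuronal adhesion gene, was at 84.7, 48.2, 69.9 and 64.0 CPM in 12, 23, 11 and 14 cells and at most 1.27 CPM in other kept cells. Aldh1l2 was at 21.2, 37.9, 128 and 69.3 CPM and Syt7 at 123, 29.2, 34.9 and 101 CPM. Insrr had a median ratio of 3.78 to type A, Car15 of 3.14, Dll1 of 2.46, Jag1 of 1.39, Hepacam2 of 1.37, Fxyd2 of 1.24, Car12 of 1.16 and Slc4a9 of 1.15. Foxi1 had a median of 0.17, from 0.62 in sham to -0.37 at day 2, and Rhbg was higher in type A (-1.09).

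The lowest ratios belonged to genes seen mainly in type A cells, among them 2610016A17Rik (median -5.82), Dmrt2, a transcription factor (-4.97), the receptor kinase gene Kit (-4.16) and Mme, which encodes neprilysin (-3.77). With type B zeros in sham set to the floor, 2610016A17Rik was at -4.09 and Dmrt2 at -3.94. Kit was at 21.2, 21.9, 37.8 and 16.0 CPM in type B and 492, 329, 472 and 565 CPM in type A cells. After reversal 10 of 16 immediate-early and heat-shock genes were at least 2-fold lower in type B than in type A, with a median of -1.54. The other libraries had none lower, with 3 of 12 higher in sham (median 0.75), 2 of 16 at day 2 (0.07) and 2 of 15 at day 7 (-0.01). In the reversal library 4 of 5 cell cycle genes (median -1.59) and 6 of 16 injury genes (-0.91) were also lower in type B. There 1 type A cell held 47857 of the 414252 UMIs of the type A sum.

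**Figure D5:**
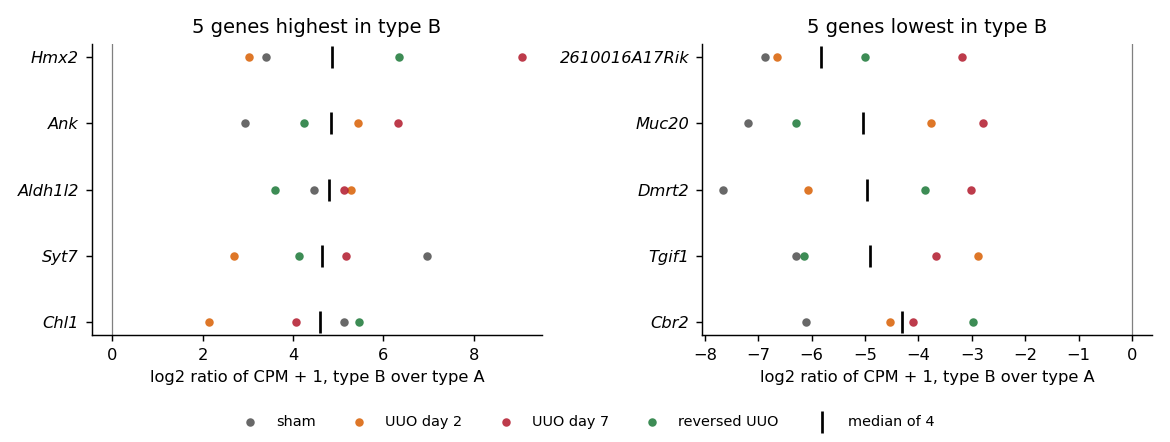
Log2 ratio of CPM + 1 in type B over type A cells, for the 5 genes with the highest and the 5 with the lowest median over the 4 libraries. Each point is 1 library and the black mark the median. Ratios of genes at 0 UMIs in a class depend on the constant added, as for Hmx2 at day 7, where type A had none.

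The genes whose level was most like that of Slc26a4 were ranked by Spearman correlation over 12 sums, those of type B, type A and principal cells in each of the 4 libraries, as a description among 8259 genes. The sums of a library share its depth and its free RNA, and the rule separated these classes on Slc26a4 itself, so any gene higher in type B cells ranks high. Igfbp5 (rho 0.96), Atg4d (0.96), Insrr (0.95) and Hmx2 (0.95) came first, followed by Sephs2 (0.94), Cyb5a (0.94), Sema3b (0.93), Epas1 (0.93), Tmem37 (0.92) and Ndufa1 (0.92). Among single type B cells of a library, Slc26a4 and Hmx2 had rho of 0.25 in sham, 0.10 at day 2, 0.42 at day 7 and 0.10 after reversal, and Slc26a4 and Slc4a9 0.31, 0.25, 0.33 and -0.20, weak values in sparse counts. Slc26a4 and Insrr had -0.17, -0.07, 0.15 and -0.08 in the same order, and Slc26a4 and Foxi1 0.07, -0.27, 0.06 and -0.06. The other 3 pairs computed, with Atp6v1g3, Atp6v1b1 and Aqp2, lay between -0.20 and 0.23.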

How the data were processed

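Of the 5 samples of the series, the 4 droplet libraries were used, and the fifth, a Smart-seq2 sample, was not used here. The authors deposited a matrix of UMI counts per gene and cell for each library, not normalized, listing 28692 gene IDs with 28625 symbols. The submitters' processing notes name Cell Ranger, STAR, GRCm38 and mm10; the roles and versions of the tools are not given in the sources used here.

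Cells were kept and called type B by the rule given at the start, with type A and principal cells called alike (principal with at least 3 UMIs of Aqp2 plus Hsd11b2, more Aqp2 than Slc26a4, Slc4a1 and Aqp6 UMIs together, and under 3 pump UMIs). The members, gene lists and named-gene rule were chosen with earlier results of these data known. No doublets were removed: the automatic Scrublet threshold (scanpy 1.11.5) marked 0, 8, 2 and 8 cells and so had not worked, and removing the highest scores was tried as an alternative. For each class of cells, the UMIs of a library were added up and scaled to CPM. Ratios are log2 of CPM + 1, with exact conditional binomial 95% intervals (scipy 1.17.1), for genes with at least 10 summed UMIs in the pair. Intervals cover counting error only, and cells are not replicates. A class or library at 0 was compared through a floor of 3 counts over the summed cells. Beside the lists, the 10 genes with the strongest call in each direction of each comparison were eligible to be named, if they had at least 20 UMIs and, in the library where the gene was higher, 100 CPM and 5 cells, with 15 genes per direction between type B and type A cells. Shares of cells holding a gene were compared after thinning to 1000 UMIs, since free RNA and depth can give UMIs in cells that lack a gene. TMM factors came from edgeR 4.0.16 and size factors from DESeq2 1.42.0, in R 4.3.3, and entered only as alternatives. Python 3.11.15 with numpy 2.4.6, pandas 2.3.3 and matplotlib 3.10.9 did the rest. Promoter sequences are RefSeq's. Results of 4 genes are not reported here.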

Additional observations from a re-analysis of the deposited data

How the results depend on the processing

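With 1 library a group, no result carries a test, and only counting error, single cells and settings could be varied. Depth limits genes under about 10 summed UMIs, and 27 sham cells limit every comparison with sham. No paired analysis was possible because each group is 1 library and the result comes from no test. The free-RNA subtraction and the removal of cells holding Aqp2 or Slc34a1 were chosen after seeing the data. Over the settings run, 799 of the list medians between time points stayed within the spread used to judge them and 26 moved, and of named gene ratios 1031 stayed, 88 moved and 1 reversed; the cause of each move was not tested.

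With the rule applied to cells thinned to 1000 UMIs, type B cells were 0.432% of kept cells in sham, 1.13% at day 2 and 0.405% at day 7, and 24.3% and 17.5% of intercalated cells at day 2 and day 7. A mitochondrial limit of 20% leaves fewer cells by construction. The median sham type B cell held 23.9% mitochondrial UMIs, so most sham members drop out and comparisons with sham rest on few cells. This limit gave 1.23% of kept sham cells (95% interval 0.534 to 2.42%) and 26.2% of intercalated cells after reversal. It also gave 173 genes higher from sham to day 2, 190 lower from day 7 to reversal and 137 higher from sham to reversal. Its medians were 3.61 for cell cycle and -0.56 for mitochondrially encoded genes from sham to day 2, 0.090 for carbonic anhydrases and -0.35 for mitochondrially encoded genes from day 2 to day 7, 0.70 for the latter and 0.38 for the nuclear respiratory chain from day 7 to reversal, and 1.36 for receptors, -0.42 for the nuclear respiratory chain and -0.15 for mitochondrially encoded genes from sham to reversal.

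The mitochondrially encoded median from sham to day 2 was -0.57 with TMM factors, -0.62 with DESeq2 size factors, -0.59 with cells weighted equally, -0.84 with mitochondrial UMIs left out of the total and -0.80 without cells holding Aqp2 or Slc34a1. From day 2 to day 7 it was -0.71 with TMM and -0.73 with DESeq2 factors, and 216 and 207 genes were then called higher. Between day 7 and reversal it was 1.05, and the ion transport median 0.71, with mitochondrial UMIs left out. From sham to reversal it was -0.42 with DESeq2 factors, -0.30 with cells weighted equally, -0.49 with mitochondrial UMIs left out, -0.31 with free RNA subtracted and -0.43 without cells holding Aqp2 or Slc34a1. The interferon median from sham to reversal was 0.93 with free RNA subtracted. From sham to day 2 the identity median was -0.19 over all list genes with a UMI, and the carbonic anhydrase median -0.83 with cells weighted equally.

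Between type B and type A cells, the pan-intercalated median at day 2 turned from -0.15 to 0.0088 with TMM factors. After reversal it was 0.50 with TMM factors and -0.12 with cells weighted equally, where the kidney-enriched pump median was -0.25, and the nuclear respiratory chain median was 0.51 with TMM factors. With at least 2 UMIs of the deciding genes, the injury median was 0.65 at day 7 and -0.22 after reversal, and the immediate-early median -0.35 at day 7. The ratio of Fos from day 7 to reversal turned from -1.17 to 0.25 without the cell holding most of its UMIs.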
